A study of Rattus norvegicus with 8 samples.

Results

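The genes of the urea cycle and of hepatic glutamine handling were followed in rat liver after treatment with a glucocorticoid, an LXR agonist or both. The members were 10 genes, Nags, Cps1, Otc, Slc25a15, Ass1, Asl, Arg1, Gls2, Glul and Oat, and every probe set that the platform annotation assigns to one of them was taken, which gave 19 probe sets among 20826 with a single gene symbol. Male Sprague-Dawley rats of 180 to 200 g, whose age is not given in the sources used here, formed 4 groups. Dex livers came from rats gavaged with the GW3965 vehicle for 3 days and given dexamethasone, a synthetic agonist of the glucocorticoid receptor (GR), at 1.5 mg/kg into the muscle on the last day. GW3965 livers came from rats gavaged for 3 days with GW3965, a synthetic agonist of the liver X receptors (LXRs), at 50 mg/kg and injected with saline. Dex+GW3965 livers received both compounds at these doses and vehicle livers received gavage vehicle and saline, so all groups were gavaged and injected. Livers were taken 24 h after the injection, and 5 µg of their total RNA was labeled for 8 Affymetrix rat arrays, 2 in each group. The values are log2 signals of probe sets. Within a group the labels number a single liver and tell its arrays apart by a letter, a or b, although the methods state 2 animals for each treatment, so the p-values may measure only the spread between arrays of the same liver.

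The urea cycle turns the ammonia released from amino acids into urea, and its complete form runs in hepatocytes. Nags makes N-acetylglutamate, the obligatory activator of Cps1, which joins ammonia and bicarbonate to carbamoyl phosphate in the mitochondrion, and Otc then forms citrulline from it. Slc25a15 exchanges citrulline for ornithine across the inner mitochondrial membrane, and Ass1, Asl and Arg1 complete the cycle in the cytosol. Periportal hepatocytes hold most of the cycle enzymes together with Gls2, the liver glutaminase that feeds ammonia to Cps1. A rim of pericentral hepatocytes instead carries Glul, the glutamine synthetase that captures residual ammonia, and Oat, which turns ornithine toward glutamate. Glucocorticoids are known inducers of several urea cycle enzymes in rat liver and hepatocytes.

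The start regions of the genes were examined because most cycle enzymes moved together after dexamethasone. RefSeq windows of 300 bases on the rat build GRCr8, 250 before to 50 after a start site, were matched by symbol for 9 of the 10 genes, 11 windows in all, with 2 each for Glul and Gls2. Arg1 had no entry. The 250 bases before the start are shown 5′ to 3′ for Ass1, which rose most after dexamethasone among the members, for Oat, which fell most, and for Gls2 at the first of its starts, which fell most after GW3965. Slc25a15 on 1381124_at rose about as much as Ass1 (log2 fold changes 0.661 and 0.662). With quantile normalization Slc25a15 on that probe set rose more (0.697 against 0.673). Capitals mark a match to a searched motif.
Ass1, chr3:35149480-35149729 (+ strand): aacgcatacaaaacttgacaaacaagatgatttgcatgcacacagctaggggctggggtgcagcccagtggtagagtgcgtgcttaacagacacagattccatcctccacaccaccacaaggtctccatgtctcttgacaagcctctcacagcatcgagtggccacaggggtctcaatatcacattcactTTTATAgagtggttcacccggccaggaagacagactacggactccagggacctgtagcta
Oat, chr1:196797755-196798004 (- strand): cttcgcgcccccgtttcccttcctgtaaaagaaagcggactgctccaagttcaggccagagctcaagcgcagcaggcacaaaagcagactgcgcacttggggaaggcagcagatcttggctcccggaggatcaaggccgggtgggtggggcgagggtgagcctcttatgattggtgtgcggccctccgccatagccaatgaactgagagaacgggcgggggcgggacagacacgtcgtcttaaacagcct
Gls2, chr7:1201629-1201878 (+ strand): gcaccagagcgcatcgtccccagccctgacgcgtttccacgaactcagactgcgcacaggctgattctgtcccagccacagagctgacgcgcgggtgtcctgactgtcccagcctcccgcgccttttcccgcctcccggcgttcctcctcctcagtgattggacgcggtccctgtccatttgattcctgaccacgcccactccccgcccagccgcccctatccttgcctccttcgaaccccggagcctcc
The single match in these 3 stretches, in Ass1, is to the TATA box letters TATAAA on the reverse strand, 60 bases before the start, and it was also the only match among the 11 member windows. TATAAA was found in 14.2% of all 33469 windows of the table. The hexamer TGTTCT, the core of the glucocorticoid response element, was in none of the 11 member windows and in 20.7% of all windows. No member window held the whole glucocorticoid response element (0.0149% of all windows), of which the hexamer is a part. The C/EBP palindrome TTGCGCAA (0.17%), the spaced C/EBP motif TTGCNNCAA (2.17%), the cyclic AMP response element TGACGTCA (1.83%) and the LXR element DR4 (0.00598%) were likewise without a match in the member windows. Both strands were read, and these letters say nothing of sites outside the windows or of sites that depart from the letters searched.

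After removal of control probe sets and of dim ones, 16253 probe sets were tested with limma and 18 of the 19 member probe sets were among them. The exception, the Slc25a15 probe set 1381440_at, read between 4.30 and 4.60 on the 8 arrays, below the mean array median of 5.49 taken as the background level. On every one of the 8 arrays the other 18 exceeded that array's median. In vehicle livers the means of both Cps1 probe sets, Ass1 and Arg1 lay at percentiles 99.6 to 99.8 of all probe sets. The summed level of 7 hepatocyte markers was between 16.79 and 16.88 on the log2 scale on every array. None of 4 skeletal muscle markers and none of 5 markers of kidney and small intestine was above background in vehicle livers. Of these, the intestinal marker Fabp2 averaged above background in Dex (5.79) and Dex+GW3965 livers (5.85), against 4.77 in vehicle livers. Summed markers of other liver cells moved with treatment. The 6 stellate cell markers (5 above background in vehicle) summed to between 11.45 and 11.49 in Dex livers, 11.94 and 11.97 in GW3965 livers, 11.40 and 11.43 in Dex+GW3965 livers and 12.24 and 12.25 in vehicle livers. The 3 erythrocyte markers summed to between 13.57 and 13.60, 14.11 and 14.19, 13.09 and 13.12, and 13.49 and 13.59 in the same order of groups. The 3 neutrophil markers summed to 7.36 and 7.46, 7.34 and 7.36, 8.02 and 8.12, and 8.42 and 8.47 in that order. The 5 Kupffer cell markers were highest in GW3965 livers (11.67 and 11.68, against 11.18 and 11.21 in vehicle livers), the 4 sinusoidal endothelial markers lowest in Dex+GW3965 livers (10.80 and 10.81, against 11.33 and 11.38 in vehicle livers) and the 4 cholangiocyte markers (3 above background in vehicle) highest in Dex+GW3965 livers (9.004 and 9.047, against 8.55 and 8.62 in vehicle livers). Sums follow the brightest markers, and single markers went other ways. Log2 changes against vehicle in Dex+GW3965 livers were -0.69 for Krt19 and 0.70 for Epcam, both of cholangiocytes. In GW3965 livers the erythrocyte markers Slc4a1 and Hbb stood at -0.955 and 0.61. In Dex livers the stellate cell marker Rgs5 rose by 1.24, and the hepatocyte marker Tat rose by 1.04. Tat stood at -0.88 in Dex+GW3965 livers. The part of these markers in the results below was not tested.

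Dexamethasone raised most cycle enzymes and the glutaminase and lowered glutamine synthetase, Oat and Otc. Of the 18 member probe sets, 8 rose (44.4%), 6 fell (33.3%) and 4 did not pass, while over all 16253 probe sets tested 17.2% rose and 24.7% fell (Benjamini-Hochberg adjusted p under 0.05 from limma). The median absolute log2 change was 0.35 over the members and 0.17 over all probe sets. The tested member probe sets were bright, at percentiles 93.9 to 99.8 of all probe sets in vehicle livers. Shares of members and of all probe sets, here and below, are thus not matched for brightness. Values are given below for the 2 arrays of each group, replicate a before b.

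Among the mitochondrial genes, Nags (1391907_at) read 9.92 and 9.95 in Dex livers, 9.38 and 9.40 in GW3965 livers, 9.78 and 9.76 in Dex+GW3965 livers and 9.68 and 9.65 in vehicle livers. The Dex arrays were the highest and the GW3965 arrays the lowest, and Nags rose 1.21-fold in Dex livers (log2 fold change 0.27, SE 0.04, n = 2 per group, limma adjusted p = 6.69e-05). Cps1, read on probe set 1370151_at, gave 13.64 and 13.68 in Dex livers, 12.91 and 12.89 in GW3965 livers, 13.59 and 13.55 in Dex+GW3965 livers and 13.02 and 13.04 in vehicle livers. Both groups that received dexamethasone lay above both that did not, and on this probe set Cps1 rose 1.55-fold in Dex livers (log2 fold change 0.63, SE 0.03, limma adjusted p = 1.48e-11). The other Cps1 probe set, 1384334_at, stood at 1.08-fold in Dex livers and did not pass (log2 fold change 0.11, limma adjusted p = 0.0912). Otc (1369671_at) read 12.13 and 12.10 in Dex livers, 12.38 and 12.37 in GW3965 livers, 12.24 and 12.22 in Dex+GW3965 livers and 12.37 and 12.44 in vehicle livers. Otc thus went the other way from Cps1, the enzyme before it in the mitochondrion, with its lowest arrays in Dex livers, where it fell to 81.6% of the vehicle level (log2 fold change -0.29, SE 0.03, limma adjusted p = 1.52e-06). Its GW3965 and vehicle arrays overlapped. For Slc25a15 the probe sets disagreed, and their values are given further on.

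The cytosolic enzymes rose as well. Ass1 (1370964_at), which joins citrulline and aspartate, read 14.14 and 14.10 in Dex livers, 13.21 and 13.20 in GW3965 livers, 14.09 and 14.11 in Dex+GW3965 livers and 13.45 and 13.46 in vehicle livers. It rose 1.58-fold in Dex livers (log2 fold change 0.66, SE 0.03, n = 2 per group, limma adjusted p = 3.14e-12). In order of level, Dex and Dex+GW3965 overlapped at the top, vehicle came next and GW3965 last. Asl (1368916_at), which splits argininosuccinate, read 10.42 and 10.49 in Dex livers, 10.02 and 9.93 in GW3965 livers, 10.20 and 10.24 in Dex+GW3965 livers and 10.30 and 10.23 in vehicle livers. Its change in Dex livers was the smallest among the genes that rose on a probe set, 1.14-fold (log2 fold change 0.19, SE 0.05, limma adjusted p = 0.00308), and Dex+GW3965 and vehicle overlapped. Arg1 (1368266_at), which releases urea and ornithine, read 13.74 and 13.78 in Dex livers, 13.04 and 13.03 in GW3965 livers, 13.71 and 13.78 in Dex+GW3965 livers and 13.22 and 13.10 in vehicle livers. It rose 1.52-fold in Dex livers (log2 fold change 0.60, SE 0.04, limma adjusted p = 4.97e-10), with the Dex and Dex+GW3965 arrays overlapping above the rest.

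The enzymes that release and bind glutamine nitrogen moved apart. Gls2 (1370375_at) read 11.76 and 11.77 in Dex livers, 10.87 and 10.90 in GW3965 livers, 11.82 and 11.84 in Dex+GW3965 livers and 11.35 and 11.36 in vehicle livers. It rose 1.33-fold in Dex livers (log2 fold change 0.41, SE 0.03, n = 2 per group, limma adjusted p = 2.8e-08). The brightest Glul probe set, 1386870_at, read 10.73 and 10.73 in Dex livers, 11 and 11.07 in GW3965 livers, 11.01 and 10.98 in Dex+GW3965 livers and 11.28 and 11.33 in vehicle livers. It fell to 67.1% of the vehicle level in Dex livers (log2 fold change -0.58, SE 0.04, limma adjusted p = 1.31e-09), and GW3965 and Dex+GW3965 overlapped between the Dex and vehicle arrays. The other Glul probe sets fell to 57.9% and 64.6% of the vehicle level. Oat (1367729_at) read 11.01 and 10.97 in Dex livers, 11.97 and 12.04 in GW3965 livers, 11.12 and 11.03 in Dex+GW3965 livers and 11.98 and 12.01 in vehicle livers. It showed the largest change of any member probe set against vehicle, down to 49.7% in Dex livers (log2 fold change -1.01, SE 0.04, limma adjusted p = 8.17e-13), with the 4 arrays of dexamethasone-treated rats below the 4 others. In whole liver, fewer hepatocytes of a zone and less mRNA per cell cannot be told apart. In the comparison of Dex with vehicle livers the Asl call was lost without Dex replicate b (log2 fold change 0.16, limma adjusted p = 0.0549).

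**Figure D1:**
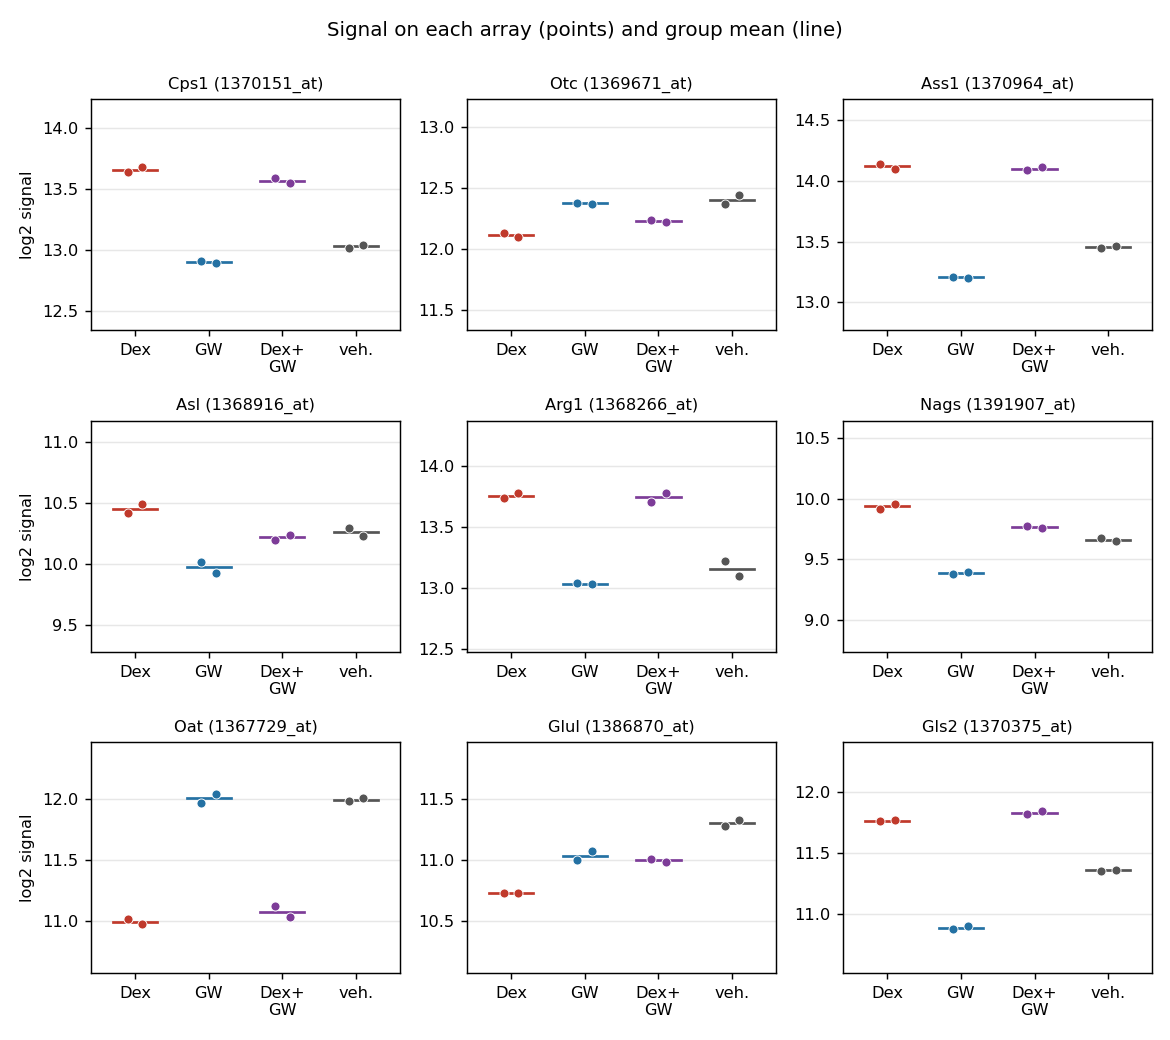
Log2 signal (vertical axes, each spanning the same range of log2 units) of 9 member probe sets on every array (points) with the group mean (line), for Dex, GW3965 (GW), Dex+GW3965 (Dex+GW) and vehicle (veh.) livers, 2 arrays each. Oat lies between 10.97 and 11.12 on the arrays with dexamethasone and at 11.97 or above on the others, while Cps1, Ass1, Arg1 and Gls2 are higher on the arrays with dexamethasone.

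GW3965 alone raised no member and lowered 8 of the 10 genes on at least 1 probe set, by small amounts. Read on the brightest probe set of each gene, or with probe sets averaged, 7 genes fell and Cps1 did not pass. Of the 18 member probe sets, 0 rose, 15 fell (83.3%) and 3 did not pass, while over all probe sets tested 5.93% rose and 14.5% fell. These shares are not matched for brightness, and Slc25a15 and Glul each count with several probe sets. At an unadjusted p under 0.05 the count of member probe sets that rose was also 0, and the methods' t-test at that level gave 0 higher and 7 lower, against 1117 higher and 1701 lower over all probe sets. Gls2 fell most, to 72% of the vehicle level (log2 fold change -0.47, SE 0.03, n = 2 per group, limma adjusted p = 2.28e-08). Ass1 fell to 83.9% (log2 fold change -0.25, adjusted p = 5.72e-06), Nags to 82.8% (-0.27, adjusted p = 2.34e-04) and Asl to 81.5% on 1368916_at (-0.30, adjusted p = 1.91e-04). The 3 Glul probe sets fell by 0.23, 0.24 and 0.27 on the log2 scale, and the 5 tested Slc25a15 probe sets fell by 0.19 to 0.24. Cps1 on 1370151_at fell by 0.13 (limma adjusted p = 0.00636) and Arg1 by 0.13 (limma adjusted p = 0.0255). The 3 probe sets that did not pass were Oat at 0.01 (95% interval -0.07 to 0.10), Otc at -0.03 (-0.10 to 0.04) and Cps1 on 1384334_at at -0.03 (-0.14 to 0.07). Without GW3965 replicate b Cps1 stood at -0.12 (adjusted p = 0.0816), without GW3965 replicate a Slc25a15 on 1381124_at at -0.14 (adjusted p = 0.0858), and Arg1 lost its call without GW3965 replicate a (-0.13, adjusted p = 0.112), GW3965 replicate b (-0.12, adjusted p = 0.141) or vehicle replicate a (-0.07, adjusted p = 0.219). Without vehicle replicate a Glul on 1367632_at stood at -0.14 (limma adjusted p = 0.039). Without an intensity trend in the fit 11 member probe sets fell, and over all probe sets 1447 fell, against 2362 with the trend. The calls lost were those of Cps1 on 1370151_at (limma adjusted p = 0.157), Arg1 (0.225), Slc25a15 on 1381124_at (0.0761) and Glul on 1367632_at (0.0655). With quantile normalization 14 member probe sets fell and 0 rose, and all the falls given above were smaller. Gls2 stood at -0.40, Ass1 at -0.18, Nags at -0.205, Asl on 1368916_at at -0.23 and Glul at -0.155, -0.18 and -0.21. The 5 Slc25a15 values lay between -0.16 and -0.11, and 1381124_at among them did not pass (-0.11, limma adjusted p = 0.106). Over all probe sets the calls were 1209 higher and 1504 lower, against 963 higher and 2362 lower as deposited.

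**Figure D2:**
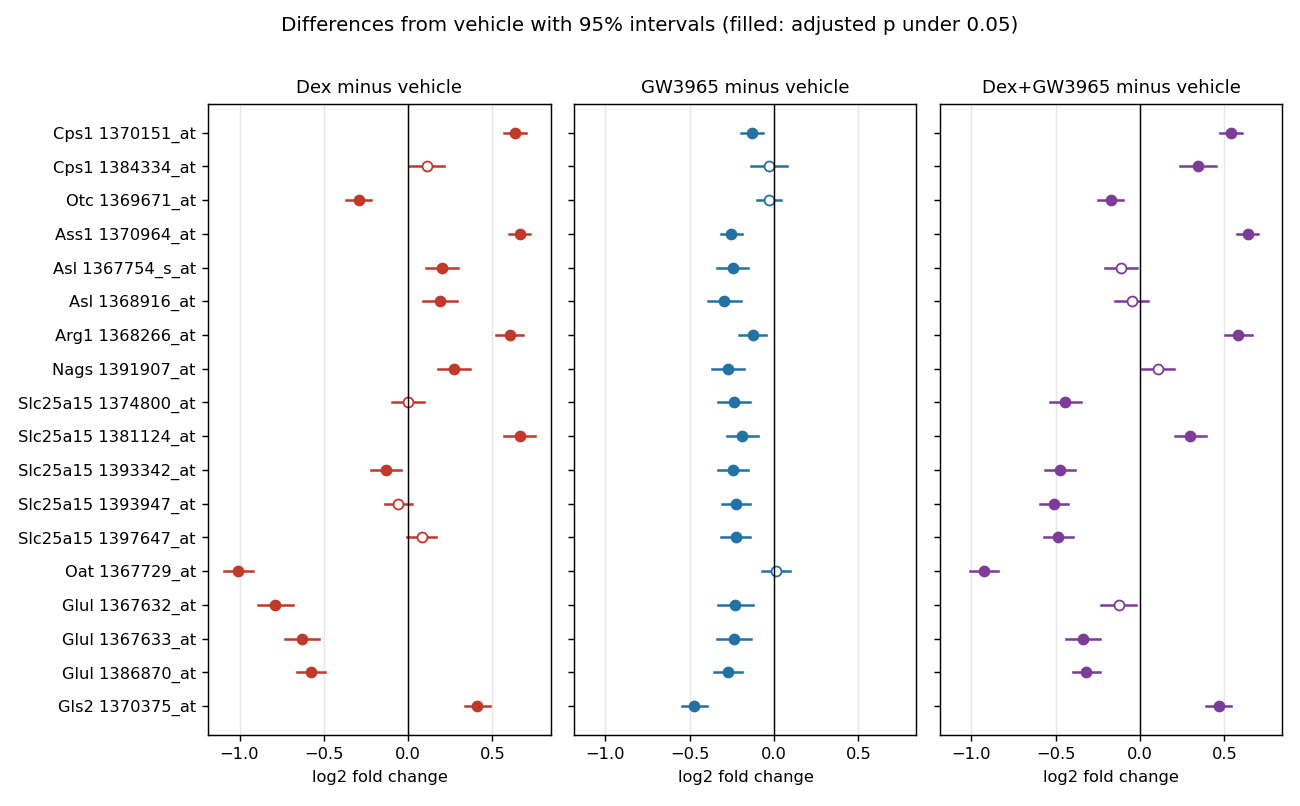
Log2 fold change against vehicle (horizontal axis) of the 18 tested member probe sets with 95% intervals from limma, in Dex, GW3965 and Dex+GW3965 livers, where filled points passed an adjusted p of 0.05. All 15 filled points of GW3965 lie below 0, whereas Dex has 8 above and 6 below and Dex+GW3965 has 6 above and 8 below.

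When both compounds were given, Cps1, Ass1, Arg1 and Gls2 stood above vehicle and Oat, Otc, Glul and most Slc25a15 probe sets below it. Of the 18 member probe sets, 6 rose (33.3%), 8 fell (44.4%) and 4 did not pass, against 15.6% higher and 21.2% lower over all probe sets tested. Ass1 rose 1.56-fold (log2 fold change 0.64, SE 0.03, n = 2 per group, limma adjusted p = 7.48e-12), Arg1 1.50-fold, Cps1 1.45-fold on 1370151_at and 1.27-fold on 1384334_at, and Gls2 1.38-fold. Oat fell to 52.7% of the vehicle level (log2 fold change -0.92, SE 0.04, limma adjusted p = 3.9e-12) and Otc to 88.6%. Glul fell to 79% and 80.2% on 1367633_at and 1386870_at and stood at 91.7% on 1367632_at, which did not pass (log2 fold change -0.13, limma adjusted p = 0.0555). Without vehicle replicate b that probe set passed at -0.21 (limma adjusted p = 0.00115). Neither Asl probe set (-0.11 and -0.05) nor Nags (0.11, limma adjusted p = 0.0723) passed, although Nags did with quantile normalization (0.12, limma adjusted p = 0.048). These comparisons share the vehicle arrays.

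Against Dex livers, Dex+GW3965 livers had more Glul and less Slc25a15, Asl and Nags. Of the 18 member probe sets, 5 were higher (27.8%), 9 lower (50%) and 4 did not pass, while over all probe sets tested 13.4% were higher and 9.38% lower. Glul was 1.58-fold higher on 1367632_at, which read 10.75 and 10.77 in Dex+GW3965 livers and 10.10 and 10.09 in Dex livers (log2 fold change 0.66, SE 0.05, n = 2 per group, limma adjusted p = 1.75e-08). On 1367633_at and 1386870_at it was 1.22-fold and 1.2-fold higher (limma adjusted p = 2.21e-04 and 9.99e-05). All 5 tested probe sets of Slc25a15 were lower, at 67.7% to 78.8% of the Dex level. Asl stood at 80.5% and 84.7% of the Dex level on its probe sets and Nags at 89.1% (log2 fold change -0.17, limma adjusted p = 0.0105). The probe sets that did not pass were Ass1 at -0.02 (95% interval -0.09 to 0.04), Arg1 at -0.02 (-0.10 to 0.06), Gls2 at 0.06 (-0.02 to 0.13) and Oat at 0.08 (-0.002 to 0.17). Cps1 was lower by 0.10 on 1370151_at (limma adjusted p = 0.0356) and higher by 0.23 on 1384334_at (limma adjusted p = 0.00237), and Otc was higher by 0.12 (limma adjusted p = 0.0176). Calls were lost for the lower Cps1 value without any one of the Dex, GW3965 or Dex+GW3965 arrays (adjusted p between 0.0533 and 0.257), for Otc without any one of the Dex or Dex+GW3965 arrays (0.0576 to 0.139) and for Nags without Dex replicate b (-0.15, adjusted p = 0.0977) or Dex+GW3965 replicate b (-0.16, adjusted p = 0.0728). Without an intensity trend 10 member probe sets passed, and over all probe sets 2711 passed, against 3698 with the trend. Cps1 on 1370151_at (limma adjusted p = 0.276) and on 1384334_at (0.0841), Otc (0.186) and Nags (0.0714) did not pass without it. Nor did Otc with quantile normalization (0.10, limma adjusted p = 0.0683) or Cps1 on 1370151_at with arrays shifted to one median (-0.08, limma adjusted p = 0.086).

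The effect of dexamethasone was also read within GW3965-treated rats, as the difference between Dex+GW3965 and GW3965 livers. Of the 18 member probe sets, 9 were higher (50%), 6 lower (33.3%) and 3 did not pass, against 19% higher and 16.8% lower over all probe sets tested. Gls2 was 1.92-fold higher (log2 fold change 0.94, SE 0.03, n = 2 per group, limma adjusted p = 3.97e-13) and Ass1 1.86-fold (0.89, SE 0.03, limma adjusted p = 7.27e-14). Arg1 was 1.64-fold higher, Cps1 1.59-fold on 1370151_at, Nags 1.30-fold and Asl 1.19-fold on 1368916_at, while Oat stood at 52.3% of the GW3965 level. The probe sets that did not pass were the 3 of Glul, at 0.10, -0.10 and -0.05 on the log2 scale (limma adjusted p = 0.111, 0.117 and 0.391). This depended on the scaling: with quantile normalization Glul was lower on 1367633_at (-0.14, limma adjusted p = 0.0355) and 1386870_at (-0.12, limma adjusted p = 0.0283), and with arrays shifted to one median it was higher on 1367632_at (0.13, limma adjusted p = 0.045). Glul on 1367632_at also passed without vehicle replicate a (adjusted p = 0.0312) or vehicle replicate b (adjusted p = 0.0306), each time at 0.10, and Asl on 1367754_s_at (0.13, adjusted p = 0.0262) lost its call without GW3965 replicate b (0.10, adjusted p = 0.204) or Dex+GW3965 replicate a (0.10, adjusted p = 0.181), with quantile normalization (0.08, adjusted p = 0.152), with no filter (adjusted p = 0.0511) and without an intensity trend (adjusted p = 0.124). Without that trend Otc (-0.14) did not pass either (limma adjusted p = 0.0852).

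The test of whether that effect differed from the one without GW3965 (the interaction) passed for 10 of the 18 member probe sets. It was positive for 7 (38.9%) and negative for 3 (16.7%), and over all probe sets tested for 15.8% and 6.93%. With quantile normalization the split was 6 positive and 6 negative among the members and 1836 and 1593 over all probe sets, against 2571 and 1127 as deposited. The 3 Glul probe sets had interaction terms of 0.89, 0.53 and 0.53 (SE 0.07, 0.07 and 0.06, n = 2 per group, limma adjusted p = 4.4e-08, 1.84e-05 and 1.93e-06). Its log2 changes after dexamethasone were 0.10, -0.10 and -0.05 with GW3965, against -0.79, -0.63 and -0.58 without it, and with quantile normalization the changes with GW3965 were 0.06, -0.14 and -0.12, of which the last 2 passed as lower. Gls2 had an interaction term of 0.53 (SE 0.05, limma adjusted p = 4.31e-07), since its log2 change after dexamethasone was 0.94 with GW3965 and 0.41 without. Ass1 had a term of 0.23 (SE 0.04, limma adjusted p = 5.32e-04), which was 0.15 with quantile normalization (limma adjusted p = 0.0278). Slc25a15 had negative terms on 1374800_at (-0.20), 1393947_at (-0.23) and 1397647_at (-0.33, limma adjusted p = 4.73e-04). For Oat the term was 0.07 (95% interval -0.05 to 0.19), for Arg1 0.11 (-0.01 to 0.22), for Nags 0.11 (-0.03 to 0.24) and for Cps1 on 1370151_at 0.03 (-0.06 to 0.13), and none of these passed. Without an intensity trend 5 of the 10 calls ended, and over all probe sets 2684 passed in place of 3698. The calls that ended were those of Ass1 (limma adjusted p = 0.0742), Otc (0.23), Cps1 on 1384334_at (0.147) and Slc25a15 on 1374800_at (0.161) and 1393947_at (0.083). With quantile normalization Otc did not pass (0.09, limma adjusted p = 0.266), Slc25a15 on 1393947_at stood at -0.35, and Asl on 1367754_s_at (-0.18), Slc25a15 on 1381124_at (-0.27) and Slc25a15 on 1393342_at (-0.22) passed. With arrays shifted to one median Slc25a15 on 1374800_at did not pass (-0.17, limma adjusted p = 0.0642). Calls of smaller terms turned on single arrays: Otc (0.15, adjusted p = 0.0328) did not pass without any one array other than vehicle replicate a (adjusted p between 0.0619 and 0.125), Slc25a15 on 1374800_at did not pass without Dex replicate b, GW3965 replicate a, Dex+GW3965 replicate a or vehicle replicate b (0.0669 to 0.136), and Cps1 on 1384334_at (0.26) did not pass without GW3965 replicate b (0.19, adjusted p = 0.0992) or Dex+GW3965 replicate b (0.24, adjusted p = 0.0557). Arg1 passed without vehicle replicate b (0.17, adjusted p = 0.0127) and Slc25a15 on 1381124_at without GW3965 replicate a (-0.22, adjusted p = 0.0342).

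**Figure D3:**
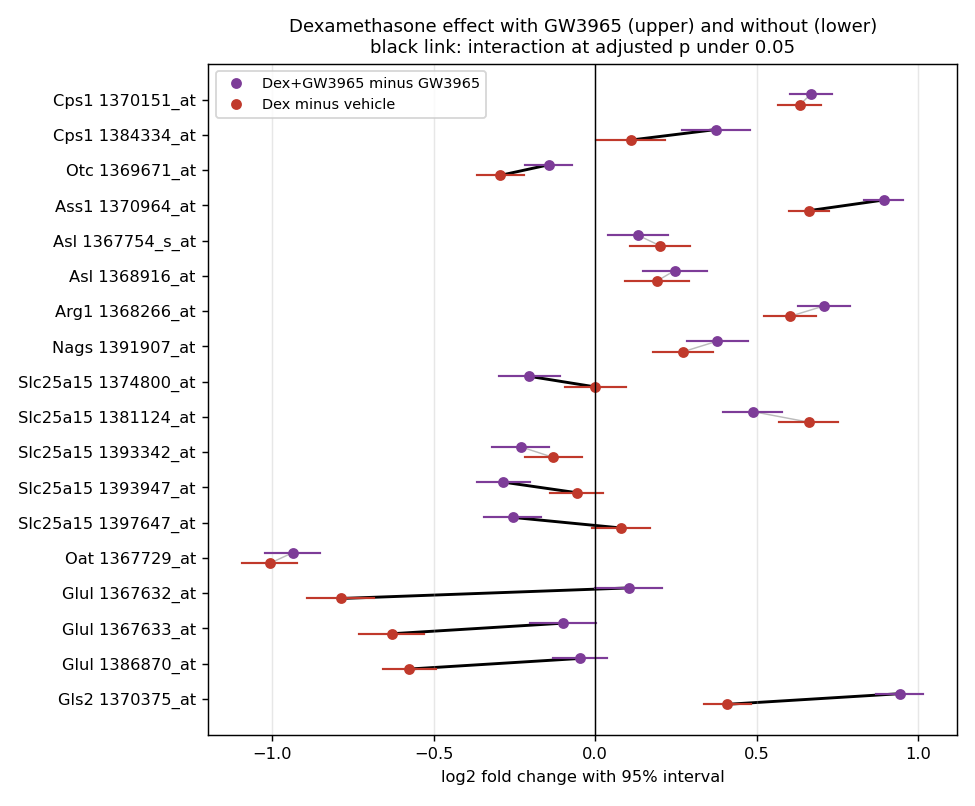
Log2 fold change after dexamethasone (horizontal axis, 95% intervals from limma) of the 18 tested member probe sets, in GW3965-treated rats (Dex+GW3965 minus GW3965, upper point of each pair) and in vehicle-treated rats (Dex minus vehicle, lower point). Black links join pairs whose difference passed an adjusted p of 0.05, and the longest link among them is that of Glul 1367632_at, at 0.10 with GW3965 and -0.79 without it.

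Genes with several probe sets were compared on each of them. For Slc25a15, probe set 1381124_at read 11.05 and 10.98 in Dex livers, 10.12 and 10.21 in GW3965 livers, 10.64 and 10.66 in Dex+GW3965 livers and 10.35 and 10.36 in vehicle livers, and it rose 1.58-fold in Dex livers (log2 fold change 0.66, SE 0.04, n = 2 per group, limma adjusted p = 7.82e-10). The other 4 tested probe sets of the gene stood between -0.13 and 0.08 in Dex livers, of which only 1393342_at passed (-0.13, limma adjusted p = 0.0185), and that call was lost without Dex replicate a (-0.14, adjusted p = 0.0629), Dex replicate b (-0.12, adjusted p = 0.1) or vehicle replicate b (-0.11, adjusted p = 0.0856) and without an intensity trend (adjusted p = 0.1). With quantile normalization 1393342_at did not pass either (-0.06, limma adjusted p = 0.236), and 1397647_at passed as higher (0.13, limma adjusted p = 0.0327). One of these 4, 1397647_at, read 10.89 and 10.96 in Dex livers, 10.59 and 10.64 in GW3965 livers, 10.35 and 10.37 in Dex+GW3965 livers and 10.81 and 10.87 in vehicle livers. After both compounds these 4 fell to between 70.1% and 73.6% of the vehicle level, while 1381124_at rose 1.23-fold (log2 fold change 0.30, limma adjusted p = 2.45e-05). With the 5 probe sets averaged, Slc25a15 changed by 0.11 in Dex livers (SE 0.04, limma adjusted p = 0.027) and by -0.32 in Dex+GW3965 livers (SE 0.04, limma adjusted p = 2.38e-06), so the direction reported for this carrier after dexamethasone depends on the probe set read.

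**Figure D4:**
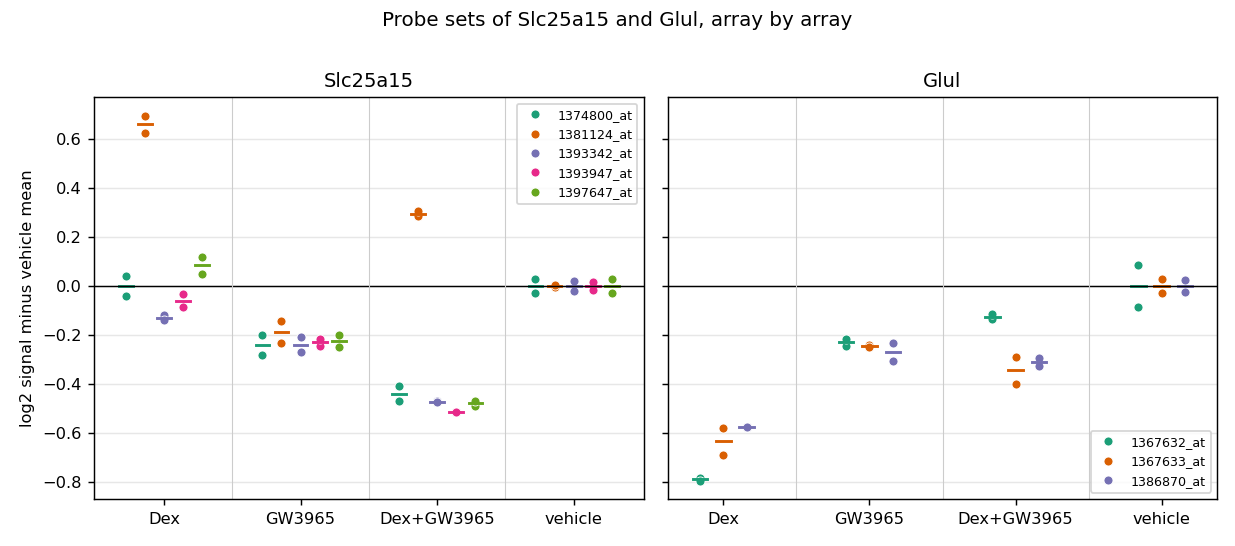
Log2 signal minus the vehicle mean of the same probe set (vertical axis) for the 5 tested Slc25a15 probe sets (left) and the 3 Glul probe sets (right) on every array (points, with lines at group means). Slc25a15 1381124_at is at 0.66 in Dex livers while the other 4 average between -0.13 and 0.08, and the 3 Glul probe sets are all lowest in Dex livers.

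Cps1 also differed between its probe sets. The second, 1384334_at, read 13.56 and 13.57 in Dex livers, 13.50 and 13.34 in GW3965 livers, 13.77 and 13.82 in Dex+GW3965 livers and 13.54 and 13.37 in vehicle livers. It changed by 0.11 in Dex livers and did not pass (SE 0.05, n = 2 per group, limma adjusted p = 0.0912), whereas 1370151_at rose by 0.63, and without vehicle replicate a it passed at 0.19 (limma adjusted p = 0.00335). Dex+GW3965 arrays were the highest on 1384334_at and Dex arrays on 1370151_at. The Asl probe set 1367754_s_at read 10.38 and 10.44 in Dex livers, 9.996 and 9.937 in GW3965 livers, 10.13 and 10.07 in Dex+GW3965 livers and 10.20 and 10.22 in vehicle livers. Its log2 changes of 0.20, -0.25 and -0.11 in Dex, GW3965 and Dex+GW3965 livers stood beside 0.19, -0.30 and -0.05 on 1368916_at. The annotation pairs it with the Asl gene identifier but with a transcript accession that RefSeq gives to Hnrnpab, an RNA-binding protein, so its assignment to Asl is uncertain. The Glul probe sets 1367632_at and 1367633_at read 10.64 and 10.67 and 10.49 and 10.48 in GW3965 livers, and 10.97 and 10.80 and 10.70 and 10.76 in vehicle livers.

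Enzymes of ammonia and glutamate metabolism were read from a list of 12 genes, of which 9 were tested. Counts of this and the later lists are to be read beside the shares over all probe sets tested. These were 17.2% higher and 24.7% lower in Dex livers and 5.93% and 14.5% in GW3965 livers. In Dex+GW3965 livers they were 15.6% and 21.2% against vehicle and 13.4% and 9.38% against Dex livers. In Dex livers 7 rose, 1 fell and 1 did not pass, with a median log2 change of 0.64 against -0.01 over all probe sets. Gpt, the alanine aminotransferase, rose by 2.39 (SE 0.04, n = 2 per group, limma adjusted p = 2.46e-18), and Got1, the cytosolic aspartate aminotransferase, by 2.21 (limma adjusted p = 5.72e-18). Car5a, a mitochondrial carbonic anhydrase that supplies bicarbonate to Cps1, rose by 0.78 and Gpt2, the mitochondrial alanine aminotransferase, by 0.73. In GW3965 livers 0 rose and 6 fell, among them Hal, which breaks down histidine (-0.58), Gpt (-0.41), Aspg, an asparaginase (-0.39), and Asns, the asparagine synthetase (-0.47). Asns did not pass without GW3965 replicate b (-0.38, adjusted p = 0.157) or vehicle replicate b (-0.39, adjusted p = 0.105). After both compounds 6 rose and 2 fell against vehicle, with Gpt at 2.22, Car5a at 0.94, Got1 at 0.80 and Gpt2 at 0.60. Against Dex livers 0 were higher and 3 lower, namely Got1 (-1.41, limma adjusted p = 1.86e-14), Aspg (-0.47) and Gpt (-0.18). Gpt did not pass there without an intensity trend (limma adjusted p = 0.0676).

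Of 15 tested genes that use arginine, ornithine, proline or polyamines, 6 rose and 4 fell in Dex livers. Over all probe sets tested 17.2% rose and 24.7% fell there. Prodh, which oxidizes proline, rose by 1.10 (SE 0.04, n = 2 per group, limma adjusted p = 5.98e-13) and Amd1, which decarboxylates S-adenosylmethionine for polyamines, by 0.95. Gatm, which uses arginine in creatine synthesis, fell by 1.43 (SE 0.13, limma adjusted p = 6.37e-08), and Sms, the spermine synthase, fell by 0.51. In GW3965 livers, where over all probe sets tested 5.93% rose and 14.5% fell, 1 gene of the list rose and 3 fell. These were Azin1, the antizyme inhibitor (0.22), Prodh2, which oxidizes hydroxyproline (-0.50), Amd1 (-0.31) and Agmat, which cleaves agmatine (-0.19). Without an intensity trend Azin1 (limma adjusted p = 0.0901) and Agmat (0.131) did not pass, nor did Agmat with quantile normalization (-0.11, limma adjusted p = 0.17). The calls of Azin1 and Agmat were lost without single arrays: Azin1 without GW3965 replicate a (0.21, adjusted p = 0.111), GW3965 replicate b (0.22, adjusted p = 0.115), vehicle replicate a (0.23, adjusted p = 0.0512) or vehicle replicate b (0.20, adjusted p = 0.0898), and Agmat without GW3965 replicate b (-0.16, adjusted p = 0.166) or vehicle replicate a (-0.14, adjusted p = 0.129). In Dex+GW3965 livers 2 rose and 5 fell against vehicle, with Prodh at 1.04, Agmat at 0.38, Gatm at -1.10 and Amd1 at -0.52. Against Dex livers 3 were higher and 5 lower, with Amd1 at -1.47 (limma adjusted p = 8.52e-12), Odc1, the ornithine decarboxylase, at -0.32, Srm, the spermidine synthase, at -0.25 and Sms at 0.49. The Srm call was lost with no filter (limma adjusted p = 0.0522) and without an intensity trend (0.0957). Srm did not pass without Dex replicate a (-0.23, adjusted p = 0.148), Dex replicate b (-0.28, adjusted p = 0.0893) or Dex+GW3965 replicate b (-0.15, adjusted p = 0.33), nor Sms without Dex+GW3965 replicate b (0.46, adjusted p = 0.0529).

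Carriers and channels of ammonia, amino acids and urea moved in both directions. Of 19 tested, 5 rose and 7 fell in Dex livers (17.2% and 24.7% over all probe sets tested), with a median log2 change of 0.00. Slc3a1, the heavy subunit of the carrier for cystine and dibasic amino acids, rose by 1.27 (SE 0.11, n = 2 per group, limma adjusted p = 3.96e-08), and Slc38a2, a sodium-coupled carrier of neutral amino acids, by 1.07. Aqp8, a channel that passes water and ammonia, fell by 1.27 and Aqp9, which passes glycerol and urea, by 1.23. In GW3965 livers 0 rose and 5 fell, among them Slc3a1 (-0.48), Slc38a3, a glutamine carrier (-0.34), Slc25a12, a mitochondrial aspartate-glutamate carrier (-0.31), and Aqp8 (-0.25). Slc3a1 lost this call without GW3965 replicate a (-0.43, adjusted p = 0.058) or vehicle replicate b (-0.30, adjusted p = 0.0829), and Slc25a12 without GW3965 replicate a (-0.29, adjusted p = 0.137), GW3965 replicate b (-0.33, adjusted p = 0.106) or vehicle replicate b (-0.21, adjusted p = 0.225). With both compounds 5 rose and 5 fell against vehicle, with Slc3a1 at 1.30, Slc25a22, a mitochondrial glutamate carrier, at 0.59, Aqp8 at -0.78 and Slc3a2, the heavy subunit of another set of amino acid carriers, at -0.75. Against Dex livers 5 were higher and 5 lower, with Aqp9 at 0.72, Slc38a2 at -0.78, Slc3a2 at -0.56 and Slc7a2, a carrier of cationic amino acids, at -0.51. Slc7a2 did not pass without Dex+GW3965 replicate a (-0.47, adjusted p = 0.0511).

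Among 17 tested genes known to regulate the members, 9 rose and 3 fell in Dex livers (17.2% and 24.7% over all probe sets tested). Foxa2, a liver transcription factor, fell by 1.54 (SE 0.05, n = 2 per group, limma adjusted p = 1.43e-13), while Cebpb, a transcription factor of the C/EBP family, rose by 1.23, Foxo1 by 0.96 and the coactivator Ppargc1a by 0.92. In GW3965 livers 3 rose and 4 fell, with Cebpb at 0.46, Klf15, a regulator of amino acid breakdown, at -0.63, Foxo1 at -0.37 and Hnf4a at -0.32. Foxo1 did not pass here without GW3965 replicate b (-0.33, adjusted p = 0.053) or vehicle replicate b (-0.26, adjusted p = 0.0537). With both compounds 7 rose and 3 fell against vehicle, with Foxo1 at 0.49, the glucagon receptor Gcgr at 0.45, the bile acid receptor Nr1h4 at 0.40 and Creb1 at -0.50. Against Dex livers 4 were higher and 5 lower, with Foxa2 at 1.67 (limma adjusted p = 2.89e-13), Cebpb at -0.90, Ppargc1a at -0.78 and Klf15 at -0.75.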

How the data were processed

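Rat livers were measured on Affymetrix whole-genome rat arrays, 2 per group, and the groups were taken from the sample labels. The authors deposited log2 signals for 31099 probe sets. Per the methods, perfect-match probes re-mapped to UniGene were used with MAS background subtraction, and the submitters' processing notes name MAS5, with no version. Array medians lay between 5.48 and 5.52, and the values were not normalized again. Like medians do not show like scaling of bright probe sets, and quantile normalization made the falls of members in GW3965 livers smaller. Arrays carry no read depth, and 2 of them per group limit the precision. Removal of 57 controls and of probe sets above their own array's median on fewer than 2 arrays left 16253. A group means model over 8 arrays was fitted with limma 3.58.1 in R 4.3.3 (eBayes with an intensity trend, 4 residual and 12.7 prior degrees of freedom), with Benjamini-Hochberg adjustment over all 16253 at 0.05. The fit was tested on simulated data. Alternatives were quantile normalization, a shift to one median, other filters, a stricter threshold, no trend, averaged probe sets, the methods' t-test, a replicate block and removal of each array. All member probe sets are reported, and of each list up to 4 called genes with the largest change per comparison, read on the brightest probe set. The members and lists were chosen with earlier results of these data known. The replicate letters showed no clear pairing of the arrays between groups, so no block was used in the fit.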

Additional observations from a re-analysis of the deposited data

Results flagged for a closer look

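For 10 member probe sets the effect of dexamethasone in GW3965-treated rats differed from its effect in vehicle-treated rats by the interaction term of limma (adjusted p under 0.05 over 16253 probe sets, n = 2 arrays per group). The log2 difference, with GW3965 minus without, was 0.8928 for Glul 1367632_at, 0.5304 for Glul 1367633_at and 0.5282 for Glul 1386870_at. Gls2 1370375_at differed by 0.5328, Cps1 1384334_at by 0.2647, Ass1 1370964_at by 0.2303 and Otc 1369671_at by 0.15. For Slc25a15 the difference was -0.2041 on 1374800_at, -0.2274 on 1393947_at and -0.3349 on 1397647_at. With 2 arrays per group, single arrays could not be tested as outlying.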

How the results depend on the processing

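Counts of member probe sets that passed were within 1.5 times the reported count under quantile normalization, arrays shifted to one median, no filter, a filter on mean signal, a stricter adjusted p of 0.01 and removal of any 1 array, for each of the 6 comparisons. With 1 array left out the counts were 12 to 15 for Dex against vehicle, 13 to 15 for GW3965 against vehicle, 14 to 15 for Dex+GW3965 against vehicle, 11 to 14 for Dex+GW3965 against Dex, 14 to 16 for Dex+GW3965 against GW3965 and 8 to 10 for the interaction, where the lone array of a group is assumed to vary like the others. Over all probe sets, fewer passed in each comparison whenever an array of a compared group was left out. With the probe sets of a gene averaged, 5 to 10 of the 10 genes passed in each comparison, against 6 to 9 on the brightest probe set of each. Without an intensity trend the interaction passed for 5 member probe sets in place of 10, with 11 for GW3965 against vehicle in place of 15 and 10 for Dex+GW3965 against Dex in place of 14. Over all probe sets the calls also became fewer, at 2684 in place of 3698, 2222 in place of 3325 and 2711 in place of 3698 in that order. The methods' t-test at an unadjusted p of 0.05 gave 12 for Dex, 7 for GW3965 and 14 for Dex+GW3965 against vehicle, with 4335, 2818 and 3789 over all 16253 probe sets, and after Benjamini-Hochberg adjustment 0 for Dex, 0 for GW3965 and 0 for Dex+GW3965 against vehicle, with 31, 19 and 28 calls over all probe sets. Of 108 single results under 14 settings, 1420 of 1512 values kept their direction and their side of the threshold, 62 lost and 15 gained a call and 15 turned direction, and none of those that turned had passed as reported. With quantile normalization Slc25a15 1393947_at stood at 0.00293 in Dex, Otc at 0.0116 in GW3965, and the interaction at -0.065 for Asl 1368916_at, -8.54e-04 for Nags and -0.0122 for Oat. With arrays shifted to one median Slc25a15 1374800_at stood at -0.0059 in Dex and Oat at -0.0082 in GW3965. With 1 array left out Slc25a15 1374800_at in Dex ranged from -0.0406 to 0.0412, Cps1 1384334_at in GW3965 from -0.116 to 0.053, Oat in GW3965 from -0.0249 to 0.0484, Otc in GW3965 from -0.0655 to 0.00364 and Arg1 in Dex+GW3965 against Dex from -0.0546 to 0.0155. The cause was not tested.

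Correlations of the difference between a and b ran from -0.232 (Dex+GW3965 with vehicle) to 0.0831 (GW3965 with vehicle) over 16253 probe sets. Arrays of the same letter thus shared little deviation, while Dex+GW3965 and vehicle deviated in part in opposite directions. The pair of Dex and GW3965 was not read. A replicate block gave 14, 15 and 14 member calls for Dex, GW3965 and Dex+GW3965 against vehicle, 13 against Dex, 15 against GW3965 and 9 for the interaction. Over all probe sets the block gave 6618, 3099, 5800, 3522, 5654 and 3543 calls in that order, against 6806, 3325, 5980, 3698, 5825 and 3698 without it. Among the members it ended the calls of Cps1 1370151_at in Dex+GW3965 against Dex (limma adjusted p = 0.0601) and of the Otc interaction (limma adjusted p = 0.0529) and no other. With the letters of Dex+GW3965 crossed, an alternative chosen after seeing the data, the replicate block gave 15, 15, 16, 14, 15 and 11 in the same order. Over all probe sets the crossed block gave 6989, 3637, 6198, 3939, 6062 and 3957.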

Other observations

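Other genes of the pericentral zone, where Glul and Oat are known to be expressed, were tested for 10 members of a list. In Dex livers 2 rose and 6 fell (17.2% and 24.7% over all probe sets tested), with a median log2 change of -0.33. Lect2, a secreted hepatocyte protein, fell by 0.86 (limma adjusted p = 2.04e-12), Gulo, which makes vitamin C in the rat, by 0.60 and Cyp7a1, which starts the conversion of cholesterol to bile acids, by 0.53. Cyp2e1 was among the 2 that rose (0.10, limma adjusted p = 0.00845). Znrf3, a ligase that removes Wnt receptors, stood at -0.55 and passed as lower. Znrf3 did not pass without Dex replicate b (-0.39, adjusted p = 0.0868) or vehicle replicate a (-0.41, adjusted p = 0.0726). In GW3965 livers Cyp7a1 fell by 3.62 (limma adjusted p = 1.87e-17), Cyp2e1 rose by 0.25 and the 8 others did not pass. In Dex+GW3965 livers 1 rose and 3 fell against vehicle, with Cyp7a1 at -2.24, Lect2 at -0.77, Gulo at -0.18 and Cyp2e1 at 0.16. Without an intensity trend Gulo (limma adjusted p = 0.0521) and Cyp2e1 (0.0507) did not pass there. Against Dex livers 3 were higher and 2 lower, with Znrf3 at 0.79, the glutamate carrier Slc1a2 at 0.51, Gulo at 0.43 and Cyp7a1 at -1.70.

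Of 10 other periportal genes tested, 5 rose and 4 fell in Dex livers (17.2% and 24.7% over all probe sets tested). Sds, which deaminates serine, rose by 3.52 (limma adjusted p = 4.16e-17), Agxt, a glyoxylate and serine aminotransferase, by 0.87 and Sdsl by 0.77, while the aldehyde dehydrogenase Aldh1b1 fell by 1.76. In GW3965 livers 1 rose and 7 fell, with Aldh1b1 at -1.09, Hal at -0.58, Hsd17b13 at -0.32 and Sds at -0.29. The Sds call in GW3965 livers was lost without an intensity trend (limma adjusted p = 0.0649). Sds did not pass there without GW3965 replicate b (-0.23, adjusted p = 0.0971) or vehicle replicate a (-0.21, adjusted p = 0.0628). In Dex+GW3965 livers 5 rose and 3 fell against vehicle, with Sds at 1.78, Agxt at 1.16, Pck1, an enzyme of gluconeogenesis, at 0.63 and Aldh1b1 at -1.60. Against Dex livers 2 were higher and 2 lower, with Cdh1, an adhesion protein, at 0.46, Agxt at 0.29, Sds at -1.74 and Sdsl at -0.37.

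Over the 8 arrays, among 814 other probe sets whose group means spanned at least 1 log2 unit, the genes most like the brightest Glul probe set were Tsc22d1 (Pearson r = 0.992), Crim1 (0.99), Ces1e (0.987), Sez6 (0.981) and Ptprf (0.981). Tsc22d1 averaged 11.28 in Dex livers, 12.02 in GW3965 livers, 11.80 in Dex+GW3965 livers and 12.55 in vehicle livers. For the Cps1 probe set 1384334_at they were Snx10 (0.945), Sp110 (0.942), Rnf213 (0.939), Ascc3 (0.938) and Rig1 (0.938). Snx10 averaged below the background level of 5.49 in all groups but Dex+GW3965 (5.60), and Sp110 did in vehicle livers (5.34). In Dex livers 1384334_at changed by 0.11 and the other Cps1 probe set by 0.63, so the likeness is to this probe set and not to the gene. Rnf213 averaged 9.03 in Dex livers, 7.99 in GW3965 livers, 10.45 in Dex+GW3965 livers and 8.37 in vehicle livers. These are descriptions over arrays that share 4 groups.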
